A study of Mus musculus with 1507 samples.

Results

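The cells described here were 91 single mouse embryonic stem (ES) cells in S phase, when DNA is copied, set against 93 single ES cells in G1, the phase before it. They made up 184 of the 1507 samples of the series. Both sets were chosen by their label alone, so no RNA value decided which cell belonged where. The cells were of the line 5G6GR, which carries a randomly integrated *Gata6*-GR transgene that drives primitive endoderm (PrE) differentiation when dexamethasone is added. No dexamethasone was given to the cells used here, and all of them grew without feeder cells in serum with leukemia inhibitory factor, puromycin and blasticidin. Live cells were sorted by the DNA stain Hoechst, each into its own well, and their RNA was read by RamDA-seq, a full-length method. It primes total RNA with oligo-dT and with not-so-random hexamers, from which exact matches to rRNA were removed. It thus also captures non-poly(A) RNA. A further 93 cells sorted as G2/M and 92 cells of all phases, taken at 0 h of a time course and with the same transgene, were used for comparison. A lysate pooled from 180 sorted G1 cells and split over 9 wells gave the G1 level without differences between cells. Levels are given in TPM, a transcript's length-corrected share of all RNA assigned in the cell, summed here per gene.

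Histones package new DNA, and their supply is tied to its synthesis. Replication-dependent histone genes lie in clusters, and their mRNAs end in a stem-loop in place of a poly(A) tail, which is bound by the protein made by *Slbp*. Their transcription is switched on at entry into S phase, and the mRNAs are degraded when DNA synthesis ends. Genes for chromosome condensation and mitosis follow later in the cycle and peak in G2 and mitosis. ES cells are known for a short G1 and for a large share of cells in S phase.

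No label named a culture or a day, so each phase counted as 1 sample and no test between the phases was made. The SDs given are over cells and describe how cells differed. A gene was called past 2-fold where the mean over S cells and the mean over G1 cells, each with 1 TPM added, differed by at least 1 on the log2 scale. No label named a plate for the sorted cells, and from the well names in the titles each phase was read as 1 plate. Phase and plate thus cannot be told apart. S cells held 12977 to 15557 genes of at least 1 TPM (median 14273) and G1 cells 11285 to 15309 (median 14050), with 5 G1 cells and 0 S cells standing apart at the low end. TPM keep no read depth, so the depth of a cell is unknown.

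Few genes separated the phases by this measure. Of 16432 genes with a mean of at least 1 TPM, 89 were past 2-fold higher in S cells (0.542%) and 54 were lower (0.329%). The median log2 difference of all genes was 0.11, S above G1, and 67.7% of them lay above 0 (75.1% of genes of at least 10 TPM). When each cell was rescaled to its nuclear protein-coding genes, that median went to 0.00 and the calls to 47 higher and 78 lower. Median-ratio size factors gave 46 higher and 77 lower. Which direction held more calls therefore turned with the scaling. As a yardstick within one phase, the G1 lysate set against the same G1 cells put 3.18% of 16406 genes past 2-fold in either direction. Pairs among 4 further plates of single ES cells, made with another version of the protocol and with no phase in their labels, put 2.50 to 3.12% past 2-fold. Much of this lay among low genes. Among genes of at least 10 TPM the values were 0.648% for S against G1, 0.607% for lysate against G1, and 0.356 to 0.691% for the plate pairs. At 1 TPM the share past 2-fold between S and G1 cells was smaller than in any of these pairs, and at 10 TPM it lay within the range of the plate pairs and slightly above the lysate. These shares are not like for like. The S and G1 means were over 91 and 93 cells, the lysate mean over 9 wells and each plate mean over 39 to 53 cells. What the unlike numbers add to the shares was not tested. The plate pairs leave out wells with few detected genes, a choice made after seeing the data, and with all wells they gave 1.11 to 6.38% at 10 TPM, above S against G1.

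**Figure D1:**
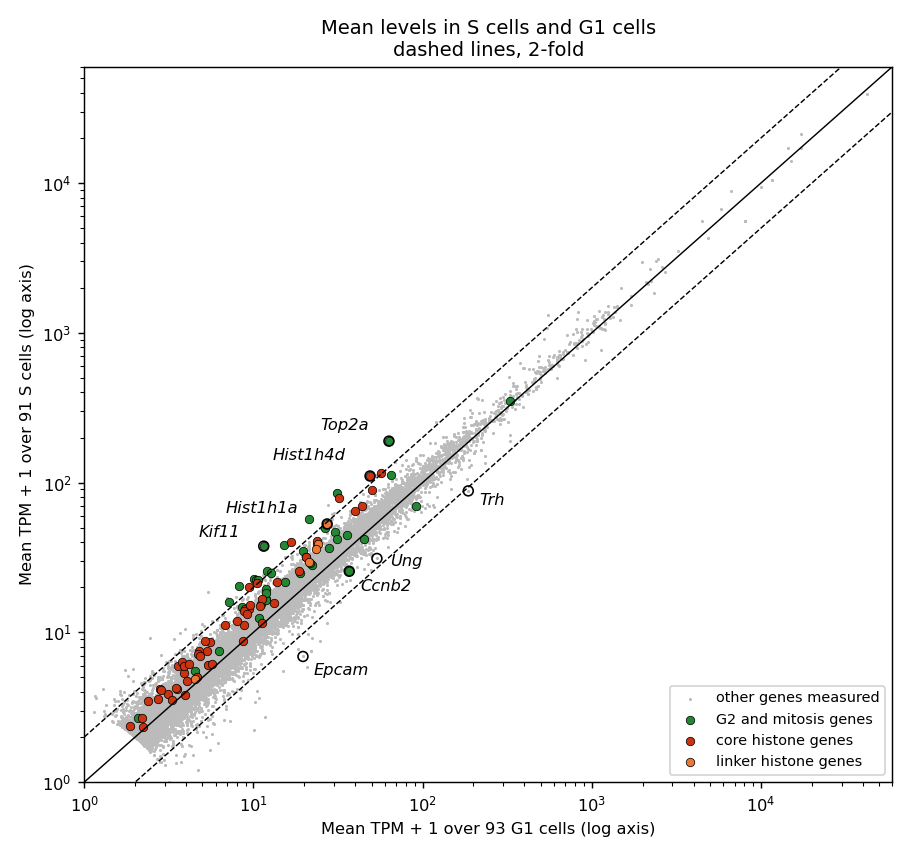
Mean TPM + 1 of each gene over 93 G1 cells (x, log axis) against the mean over 91 S cells (y, log axis), with dashed lines at 2-fold. Most of the 16432 genes lie between the lines, while 11 of 39 measured G2 and mitosis genes and 6 of 53 measured core histone genes lie above the upper line.

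The genes that crossed the line were not an even draw by kind. Of 11633 protein-coding genes of at least 1 TPM, 38 were higher in S cells and 11 lower. Of 1632 small RNA genes, 39 were higher and 34 lower. Among the 6005 protein-coding genes of at least 10 TPM, 26 were higher in S cells and 3 were lower. These counts by kind are on the TPM scale. The split by kind after rescaling, which turned the balance of all calls, is not given here.

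The replication-dependent core histone genes, whose products form the nucleosome, were higher in S cells as a group. Of 61 genes listed, 53 reached 1 TPM, 6 of these were past 2-fold higher in S cells (against 0.542% of all genes) and 0 were lower. Their median log2 difference was 0.56, against 0.11 over all genes, and 52 of 53 lay above 0, against 67.7% of all genes. The lysate, whose comparison shares the G1 cells, put 1 core histone gene higher and 2 lower than in G1 cells, with a median of −0.26. The classes were alike, with medians of 0.63 over 16 H2A genes, 0.57 over 12 H2B genes, 0.62 over 12 H3 genes and 0.54 over 13 H4 genes. With cells rescaled to nuclear protein-coding genes, the median of the core histone genes was 0.45 and 3 genes were past 2-fold.

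In single cells the summed core histone level overlapped widely between the phases. It was 113 TPM in the lowest, 317 in the median and 3944 in the highest of 93 G1 cells. In the 91 S cells it was 154, 632 and 4326 TPM. The mean was 996 ± 892 TPM (SD) in S cells and 565 ± 746 TPM in G1 cells, so the SD over cells in either phase exceeded the difference of the means. The phases differed more clearly in how many cells were high. A sum above 500 TPM was found in 62 S cells (68.1%, exact 95% binomial interval 57.5 to 77.5%) and in 20 G1 cells (21.5%, 13.7 to 31.2%). Above 1000 TPM were 30 S cells (32.97%, 23.5 to 43.6%) and 11 G1 cells (11.8%, 6.05 to 20.2%). These intervals cover the counting of cells only.

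A group of G1 cells thus held core histone RNA at levels of the upper S cells, and a group of S cells held little. The lysate wells, each an average of G1 cells, lay in a narrow band from 367 to 551 TPM (440 ± 59.03, SD, n = 9 wells). That band was above the median G1 cell and below the mean G1 cell. G2/M cells were lowest, with a median of 265 TPM and 22 of 93 above 500. The 0 h cells, which hold all phases, had a median of 1495 TPM and 69 of 92 above 500. They were thus higher than the S cells, although S phase is one part of what they hold, and the medians of the 4 further plates were 870 to 1507 TPM. Each of these groups was taken as its own set of plates, whose part in the difference was not tested.

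**Figure D2:**
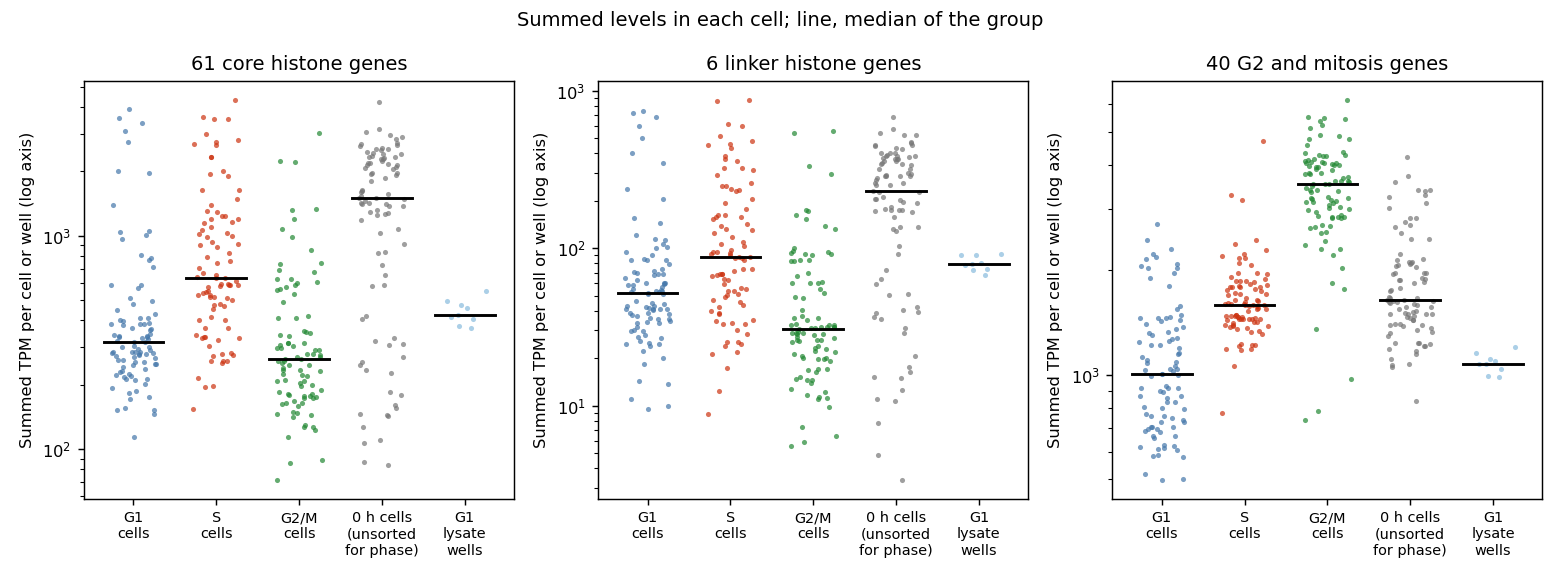
Summed TPM per cell or well (log axes) of core histone, linker histone and G2 and mitosis genes in G1, S, G2/M and 0 h cells and the G1 lysate, with a line at each median. The core histone sum has a median of 632 TPM in S cells, 317 in G1 cells and 1495 in 0 h cells, while the mitosis sum is highest in G2/M cells with a median of 3539.

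The linker histones, H1 proteins that bind between nucleosomes, moved with the core histones. Their sum had a median of 88.2 TPM in S cells, 52.03 in G1 cells, 30.6 in G2/M cells and 229 in 0 h cells. Of 6 genes, 5 reached 1 TPM, with a median log2 difference of 0.61, and 0 were past 2-fold. The differences were 0.96 for *Hist1h1a*, 0.70 for *Hist1h1b*, 0.61 for *Hist1h1e*, 0.48 for *Hist1h1d* and 0.12 for *Hist1h1c*. *Hist1h1t*, the H1 gene of the male germ line, did not reach 1 TPM. Across the S cells the linker and core sums varied together with a Spearman rho of 0.97, and across G1 cells with one of 0.78. Both sums come from the same library and share its scaling, so this is a description.

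*Hist1h1a* and *Hist1h4d*, a linker histone and an H4 gene of the large cluster on chromosome 13, were the marker genes given for S phase. *Hist1h1a* (ENSMUSG00000049539.2, mm10 chr13:23763717-23764358, plus strand) was at 0.889 TPM in the lowest, 15.2 in the median and 205 in the highest G1 cell. In S cells it was at 1.63, 29.7 and 198 TPM. The ranges overlapped almost entirely, and 75 of 91 S cells lay above the median G1 cell. The means were 26.3 ± 35.8 TPM in G1 cells and 51.9 ± 47.2 TPM in S cells, a 1.94-fold difference that stayed just inside the 2-fold line.

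*Hist1h4d* (ENSMUSG00000061482.6, chr13:23581598-23581990, plus strand) separated the phases better. It was at 7.21, 26.4 and 282 TPM in the lowest, median and highest G1 cell, and at 0, 95.003 and 308 TPM in S cells. One S cell was listed at 0, while 88 of 91 S cells lay above the median G1 cell. The mean was 109.7 ± 68.3 TPM in S cells and 47.9 ± 53.4 TPM in G1 cells (2.26-fold, log2 1.18). Between the 4 plates of ES cells without a phase label its means spanned 0.09 on the log2 scale, and in the lysate wells it was at 23.8 to 52.2 TPM. Both markers were thus higher in the cells labelled S, and neither told every S cell from every G1 cell.

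The other core histone genes past 2-fold were *Hist1h2bk*, *Hist1h2bg*, *Hist2h3b*, *Hist1h2al* and *Hist2h2aa1*. *Hist1h2bk*, an H2B gene, had the largest difference (log2 1.29), with a median of 14.5 TPM in G1 cells and 51.6 TPM in S cells. *Hist1h2bg*, also H2B, followed with 1.28 (medians 6.90 and 17.5 TPM). *Hist2h3b*, an H3 gene of the smaller cluster on chromosome 3, differed by 1.10, *Hist1h2al* (H2A) by 1.02 and *Hist2h2aa1* (H2A) by 1.02. For *Hist2h3b* and *Hist2h2aa1* the lysate was lower than the G1 cells by 1.20 and 1.24 on the log2 scale, past the line within one phase as well. *Hist2h2aa1* and *Hist2h2aa2* are near-identical copies whose reads the counting could split, and *Hist2h2aa2* was the one core histone gene below 0 (−0.06). Of the 67 core and linker genes, 55 lie on chromosome 13, 9 on chromosome 3, 2 on chromosome 11 and 1 on chromosome 6.

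The genes whose levels followed *Hist1h1a* most closely over the 277 sorted cells were histone genes throughout. The 10 highest Spearman correlations among 7006 genes of at least 10 TPM belonged to *Hist2h2bb* (0.83), *Hist1h2al* (0.82), *Hist1h4d* (0.79), *Hist1h1b* (0.79), *Hist1h2bk* (0.78), *Hist1h1e* (0.78), *Hist1h4k* (0.77), *Hist1h2ap* (0.73), *Hist1h2bg* (0.73) and *Hist1h2bl* (0.72). For *Hist1h4d* the correlation was 0.86 within S cells and 0.49 within G1 cells. By their well names these cells share plates, they also share the TPM scale, and the values are descriptions.

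The promoters of these genes are shown so that their letters can be set beside those of the mitosis genes, the other group that was higher in S cells. The sequences are the 250 bases before the RefSeq start (GRCm38.p6), 5′ to 3′ on the gene's strand, with matches on either strand in capitals. In all, 4 motifs were searched, and matches of different motifs were counted separately where they overlapped. They were the CCAAT box, the TATA box written as TATAAA, the E2F core (TTTGGCGC, TTTCCCGC, TTTCGCGC or TTTGCCGC) and the cell cycle homology region (CHR, TTTGAA). *Hist1h1a* (chr13:23763418-23763667, plus strand) holds CCAAT 56 bases and TATAAA 33 bases before the start. *Hist1h4d* (chr13:23581318-23581567, plus strand) holds a CHR match 55, CCAAT 40 and TATAAA 32 bases before it.
Hist1h1a: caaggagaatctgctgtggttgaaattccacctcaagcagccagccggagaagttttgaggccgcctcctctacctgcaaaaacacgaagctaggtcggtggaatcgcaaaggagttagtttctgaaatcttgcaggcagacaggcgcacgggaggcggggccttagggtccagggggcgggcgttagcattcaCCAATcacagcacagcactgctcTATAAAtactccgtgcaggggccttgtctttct
Hist1h4d: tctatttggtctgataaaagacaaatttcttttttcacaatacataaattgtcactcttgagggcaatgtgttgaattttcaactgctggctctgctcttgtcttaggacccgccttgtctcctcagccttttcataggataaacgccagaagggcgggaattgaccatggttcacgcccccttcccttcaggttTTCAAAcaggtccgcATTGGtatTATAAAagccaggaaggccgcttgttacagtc

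Of 55 core histone genes with a RefSeq promoter, 44 held CCAAT (80%) and 25 held TATAAA (45.5%). Over the promoters of all 27025 genes, windows of the same length, the shares were 37.5% and 14.3%. CHR letters stood in 25 of the 55 (45.5%, against 18.3% of all genes) and an E2F core in 8 (14.5%, against 2.16%). All 6 linker histone promoters held CCAAT and 4 held TATAAA. The transcripts share letters too. The histone stem-loop consensus is a fixed pattern of letters with few variable positions that folds into a 6-base stem and a 4-base loop. Searched for along whole GENCODE transcripts, it was found in those of 46 of 67 replication-dependent histone genes (68.7%) and of 22 of 55274 other genes (0.0398%). The stem-loop lay 3 bases from the transcript's end in *Hist1h2ap*, 770 in *Hist1h4d* and 4884 in *Hist1h1d*, so not every annotated transcript ends with it. Its commonest form, with the stem in capitals, was in 26 histone genes, the next in 7 genes including *Hist1h4d*, and another in 6 including *Hist1h2bk*. The annotated transcript of *Hist1h1a* held none, and whether that transcript reaches the end of the mRNA was not checked. A match is a description of letters, not a site shown to act.
Commonest form: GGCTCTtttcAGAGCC
Hist1h4d form: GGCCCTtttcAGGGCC
Hist1h2bk form: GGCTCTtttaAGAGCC

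The G2 and mitosis genes held the largest differences among protein-coding genes. Of 40 genes listed, 39 reached 1 TPM, 11 of them were past 2-fold higher in S cells (against 0.542% of all genes) and 0 were lower. Their median log2 difference was 0.64, with 36 of 39 above 0, against 67.7% of all genes. The lysate gave a median of −0.14 with 0 genes past 2-fold. The sum over the 40 genes was 499, 1002 and 2719 TPM in the lowest, median and highest G1 cell. In S cells it was 775, 1587 and 4694 TPM, and in G2/M cells 739, 3539 and 6168 TPM. S cells thus lay between the other phases, nearer to G1, and 12 of 91 S cells exceeded 2000 TPM against 10 of 93 G1 cells and 87 of 93 G2/M cells. When cells were rescaled to nuclear protein-coding genes, 8 genes were past 2-fold and the median was 0.51.

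*Kif11*, the motor that pushes spindle poles apart, led the list. *Kif11* (ENSMUSG00000012443.3, chr19:37376403-37421859, plus strand) was at 0, 5.52 and 45.96 TPM in the lowest, median and highest G1 cell. In S cells it was at 3.10, 36.3 and 69.9 TPM, and in the lysate at 5.85 to 12.5 TPM. Above the median G1 cell lay 89 of 91 S cells, and above the highest G1 cell 15. The mean was 3.27-fold higher in S cells when 1 TPM was added (log2 1.71), with SDs of 10.6 TPM over G1 cells and 10.5 TPM over S cells. In G2/M cells its median was 51.8 TPM, so most of the step from G1 was already present in S cells.

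*Top2a*, the topoisomerase that untangles replicated DNA, was the most abundant gene past the line in this list. It (ENSMUSG00000020914.17, chr11:98992943-99024189, minus strand) was at 7.41, 45.9 and 222 TPM in the lowest, median and highest G1 cell and at 12.7, 183 and 393 TPM in S cells. The means were 62.3 ± 53.97 and 188 ± 64.5 TPM (log2 1.58). The lysate wells held 45.6 to 77.1 TPM, within the lower part of the S cells. *Cdk1*, the kinase that drives entry into mitosis (ENSMUSG00000019942.12, chr10:69336635-69352938, minus strand), had medians of 21.7 TPM in G1 cells, 76.6 in S cells and 178 in G2/M cells. For *Cdk1* 90 of 91 S cells exceeded the median G1 cell, and the log2 difference was 1.44.

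**Figure D3:**
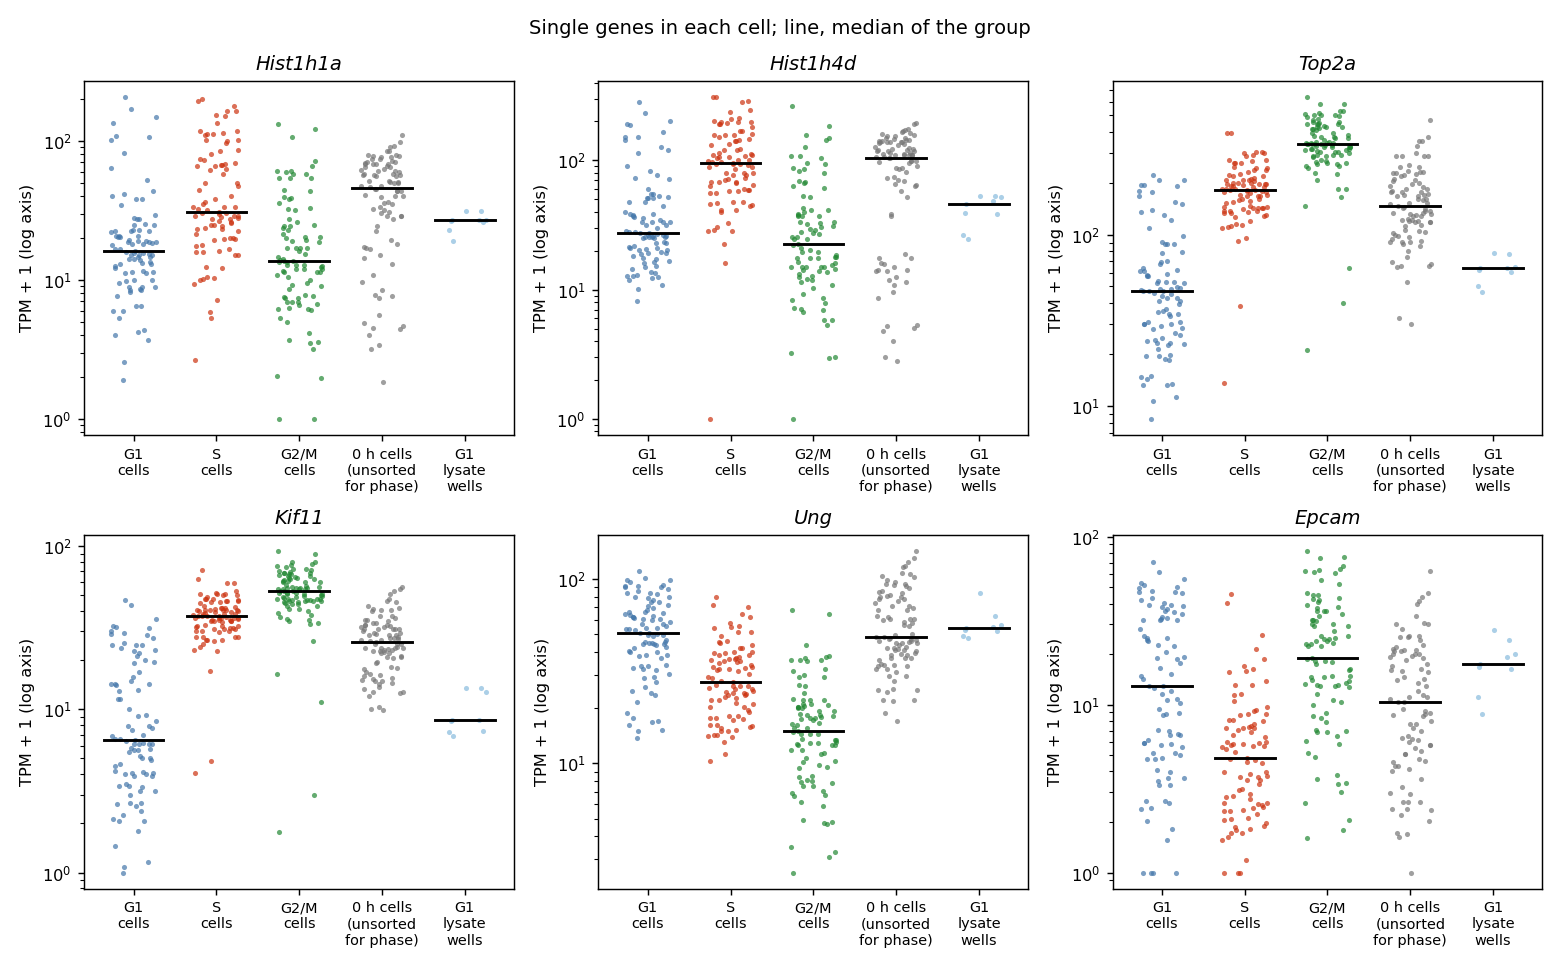
TPM + 1 (log axes) of *Hist1h1a*, *Hist1h4d*, *Top2a*, *Kif11*, *Ung* and *Epcam* in each cell of the G1, S, G2/M and 0 h groups and in the lysate wells, with a line at each median. *Hist1h4d* has a median of 26.4 TPM in G1 cells, 95.003 in S cells and 21.5 in G2/M cells, whereas *Top2a* climbs from 45.9 to 183 to 338, and *Ung* goes down from 50.03 to 26.5 to 14.02.

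The remaining mitosis genes past 2-fold were *Prc1* (log2 1.44), which bundles spindle midzone microtubules, *Ube2c* (1.35), a ubiquitin-conjugating enzyme of the anaphase-promoting complex, and the kinase genes *Aurkb* (1.31), *Aurka* (1.10) and *Ttk* (1.06). With them were *Foxm1* (1.18), a transcription factor of G2 genes, *Nusap1* (1.14), a spindle protein, and *Incenp* (1.11), the partner of Aurora B. For *Aurka* all 91 S cells lay above the median G1 cell of 6.30 TPM. Over the 39 genes the median was 84 of 91 S cells above the median G1 cell, against 56 of 91 for all genes of at least 10 TPM and 57 for core histone genes. By the sums over each list, 90 of 91 S cells lay above the median G1 cell for mitosis genes, 78 for core histone genes and 65 for linker histone genes.

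Not all members shared this. *Ccnb2*, a B-type cyclin, was lower in S cells (log2 −0.53), with medians of 27.6 TPM in G1 cells, 20.4 in S cells and 58.99 in G2/M cells. *Cdc20*, the activator of the anaphase-promoting complex, had a lower mean in S cells (−0.38) but a higher median (59.8 TPM against 40.2). In G1 cells it reached 420 TPM in the highest cell, and the mean there was 90.6 ± 98.6 TPM. *Cenpa*, the centromeric H3 variant, showed the same split, with a log2 difference of −0.11 in the means and medians of 19.96 TPM in G1 and 32.1 TPM in S cells. *Ccnb1*, the other B-type cyclin, was higher by 0.80, with medians of 57.4 and 101.5 TPM and 293 TPM in G2/M cells.

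**Figure D4:**
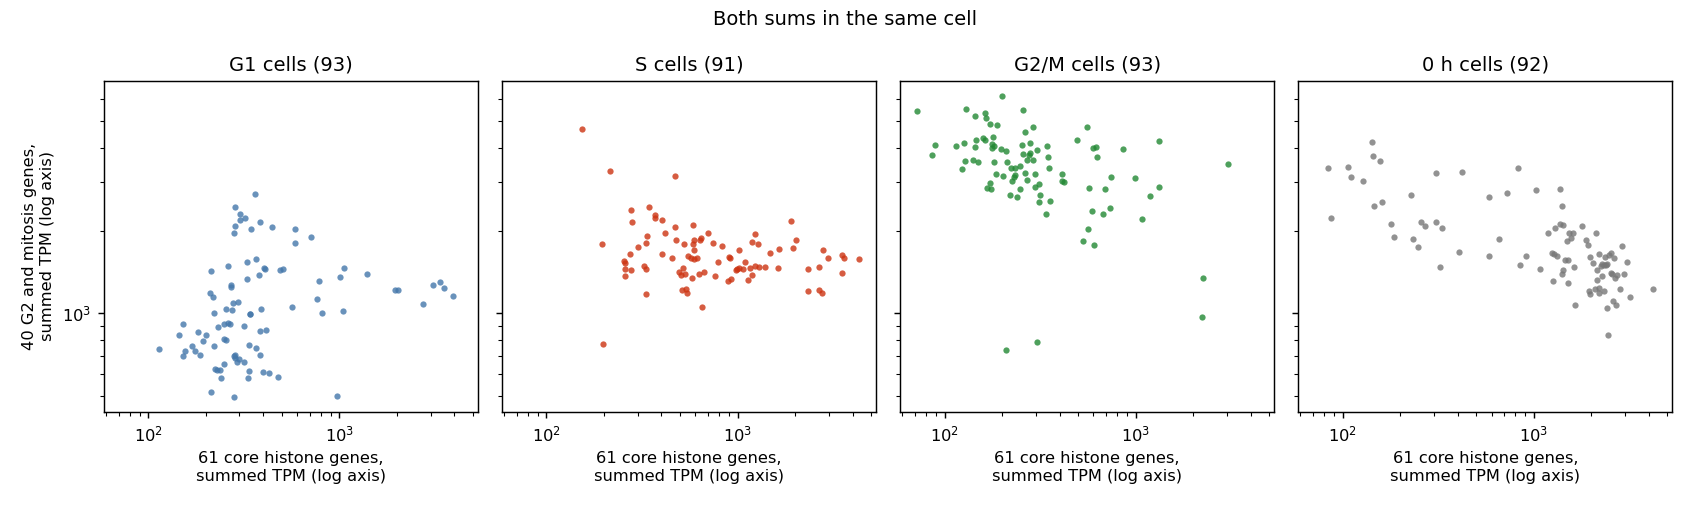
Summed TPM of 61 core histone genes (x, log axis) against summed TPM of 40 G2 and mitosis genes (y, log axis) in the same cell, one panel per group of cells. The Spearman rho is 0.38 over G1 cells, −0.20 over S cells, −0.48 over G2/M cells and −0.74 over 0 h cells, where high sums of one kind rarely stand with high sums of the other.

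Within a cell the histone and mitosis sums were related differently in each group. Over 93 G1 cells the Spearman rho of both sums was 0.38, so that G1 cells high in histone RNA tended to be higher in mitosis RNA. It was −0.20 over 91 S cells, −0.48 over 93 G2/M cells and −0.74 over 92 cells at 0 h. The points of a group share, by their well names, a plate, and they share the TPM scale, on which a rise of one sum lowers the rest. The number of detected genes had a rho of −0.22 with the core histone sum over G1 cells and of −0.09 over S cells.

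The promoters of 3 leading mitosis genes are printed for comparison with the histone promoters above, in the same form. *Kif11* (chr19:37376132-37376381, plus strand) holds CCAAT 45 bases and a CHR match 19 bases before the start. *Top2a* (chr11:99024190-99024439, minus strand) holds 6 CCAAT matches and CHR matches at 179 and 23 bases. *Cdk1* (chr10:69352913-69353162, minus strand) holds 3 CCAAT matches, an E2F core 131 bases and CHR matches 71 and 15 bases before the start. None of the 3 holds TATAAA in this window.
Kif11: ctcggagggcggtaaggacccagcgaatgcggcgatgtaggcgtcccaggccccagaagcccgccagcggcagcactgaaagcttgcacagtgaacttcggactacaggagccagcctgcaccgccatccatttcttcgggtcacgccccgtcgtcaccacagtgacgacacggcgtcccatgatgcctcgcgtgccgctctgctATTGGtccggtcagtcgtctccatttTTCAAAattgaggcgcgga
Top2a: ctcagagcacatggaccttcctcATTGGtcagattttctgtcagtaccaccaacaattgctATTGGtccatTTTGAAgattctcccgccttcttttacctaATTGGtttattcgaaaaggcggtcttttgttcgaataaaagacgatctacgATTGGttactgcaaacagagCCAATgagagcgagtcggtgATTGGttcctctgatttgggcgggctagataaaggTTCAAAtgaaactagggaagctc
Cdk1: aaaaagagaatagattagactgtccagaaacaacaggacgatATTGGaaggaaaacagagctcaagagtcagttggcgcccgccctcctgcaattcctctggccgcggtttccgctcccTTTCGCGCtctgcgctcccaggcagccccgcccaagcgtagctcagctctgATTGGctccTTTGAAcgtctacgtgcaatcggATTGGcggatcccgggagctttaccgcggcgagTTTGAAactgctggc

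Of 32 mitosis genes with a RefSeq promoter, 26 held CCAAT, 12 held CHR letters (37.5%, against 18.3% of all genes), 1 held TATAAA and 1 an E2F core. Both groups thus shared CCAAT at about the same rate, whereas TATAAA stood in 25 of 55 core histone promoters and 1 of 32 mitosis promoters. Over the 6 lists searched, E2F core letters were most frequent among the origin licensing genes, with 6 of 14 promoters (42.9%, against 2.16%), and the G1/S cyclin, nucleotide supply and DNA repair lists were not searched.

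Genes that copy DNA differed less than either group. Among 16 genes of origin licensing and the MCM helicase, 0 were past 2-fold and the median log2 difference was 0.14, close to the 0.11 of all genes. *Gmnn*, the inhibitor of licensing that accumulates in S phase, was highest at 0.57 (medians 39.2 TPM in G1 and 60.5 in S cells), and *Cdc6*, a loader of the helicase, was lowest at −0.23. *Mcm2*, a helicase subunit, was at 118 TPM in the median G1 cell and 116 TPM in the median S cell.

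The 34 genes of origin firing and the replication fork were a little higher. Their median was 0.35, 30 of the 34 lay above 0, against 67.7% of all genes, and 0 were past 2-fold. *Rfc4*, a subunit of the clamp loader, was highest at 0.80, with medians of 24.2 and 45.4 TPM and 88 of 91 S cells above the median G1 cell. *Pcna*, the sliding clamp, differed by 0.37 (91.8 and 127 TPM). *Uhrf1*, which binds hemimethylated DNA behind the fork, was lowest at −0.35, with medians of 147 and 112 TPM. For these lists the lysate gave medians of 0.03 and 0.03, with 0 genes past 2-fold.

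Genes of nucleotide supply had a median of 0.13 over 12 genes, with *Rrm1*, the large subunit of ribonucleotide reductase, highest at 0.43. DNA repair and checkpoint genes had a median of 0.36 over 24 genes, 22 of them above 0, against 67.7% of all genes. *Fancd2*, of the crosslink repair pathway, was just inside the line at 0.94, with medians of 11.05 and 25.7 TPM. Cohesin genes had a median of 0.40 over 12, led by *Cdca5*, the sororin gene, at 0.92 (medians 10.3 and 24.1 TPM). Both of these genes were higher in S cells than in 0 h cells or G2/M cells by their medians.

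The G1/S cyclins and E2F pathway pointed both ways. Of 22 genes, 21 reached 1 TPM and 0 were past 2-fold, with a median of 0.15. Above 0 lay 12 of the 21, against 67.7% of all genes. *Ccnd3*, a D-type cyclin, was lowest at −0.61 (medians 113 TPM in G1 and 69.9 in S cells), and *Ccne1*, cyclin E1, was next at −0.58 (18.4 and 12.97 TPM). *Rbl1*, which encodes the pocket protein p107, was highest at 0.80 (5.44 and 10.2 TPM), and 25 of 91 S cells exceeded the highest G1 cell. *E2f1* itself differed by 0.15. Of 7 CDK inhibitor genes, 4 reached 1 TPM, with a median of 0.05.

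**Figure D5:**
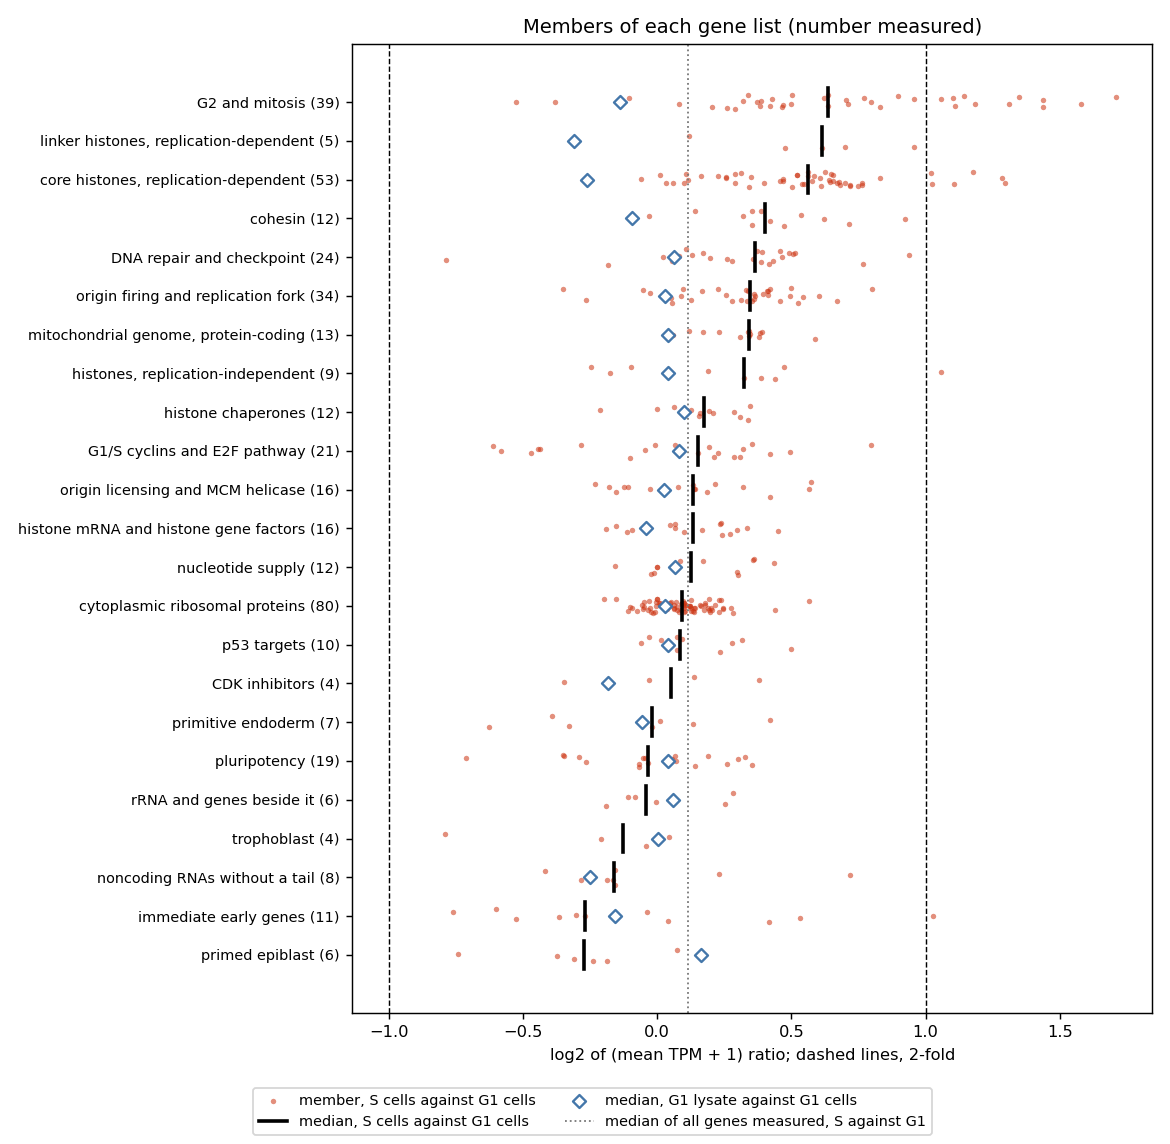
log2 ratio of mean TPM + 1 (x) of S cells against G1 cells for each measured member of the gene lists, with dashed lines at 2-fold. Diamonds show only the list medians of the G1 lysate against the same G1 cells. The core histone, linker histone and mitosis lists lie furthest right for S cells, with medians of 0.56, 0.61 and 0.64, where the lysate has −0.26, −0.31 and −0.14.

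The factors that act on histone genes and proteins differed little. *Slbp* had medians of 77.8 TPM in G1 cells and 83.2 TPM in S cells (log2 0.07), while G2/M cells were at 55.0 TPM. The 16 factors of histone mRNA and histone gene control had a median of 0.13 and the 12 histone chaperones one of 0.17, with 0 past 2-fold in either. Among 9 histone genes listed as replication-independent the median was 0.32 and 1 was past 2-fold. This was *H2afx*, the variant phosphorylated at DNA breaks, at 2.57, 12.4 and 46.1 TPM in the lowest, median and highest G1 cell and 5.22, 30.8 and 62.1 TPM in S cells (log2 1.06). In the bulk libraries described at the end it was higher in rdRNA-seq (log2 0.72, edgeR adjusted p = 1.697e-07), whereas *H2afz*, another variant of H2A, was lower (−0.22, edgeR adjusted p = 2.610e-04). The median of *H2afx* in G2/M cells was 47.7 TPM, so that it climbed through the cycle like the mitosis genes and unlike *Hist1h4d*.

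On the TPM scale few protein-coding genes were past 2-fold lower in S cells, 11 of 11633 of at least 1 TPM. *Ung*, the uracil-DNA glycosylase that removes uracil from newly made DNA, was the lowest of the DNA repair list. *Ung* (ENSMUSG00000029591.14, chr5:114130386-114139323, plus strand) was at 12.6, 50.03 and 109.5 TPM in the lowest, median and highest G1 cell and 9.30, 26.5 and 78.3 TPM in S cells. The means were 52.8 ± 23.8 and 30.1 ± 14.8 TPM (log2 −0.79), and 11 of 91 S cells lay above the median G1 cell. The 4 plates of ES cells without a phase label spanned 0.03 on the log2 scale for *Ung*, and its median in G2/M cells was 14.02 TPM. It thus went down from G1 to S to G2/M, inside the 2-fold line at the first step.

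*Epcam*, an epithelial adhesion gene, was past 2-fold lower in S cells. *Epcam* (ENSMUSG00000045394.8, chr17:87635979-87651106, plus strand) was at 0, 11.8 and 70.03 TPM in the lowest, median and highest G1 cell and at 0, 3.80 and 44.6 TPM in S cells. Its means were 18.6 ± 17.4 and 5.90 ± 7.27 TPM (log2 −1.51), with 12 of 91 S cells above the median G1 cell. In G2/M cells the median was 18.1 TPM, so the S cells stood alone as low among the sorted cells. *Trh*, the precursor of thyrotropin-releasing hormone, differed by −1.08 (medians 156 and 63.7 TPM, G2/M 113 TPM) and *Lmna*, lamin A/C of the nuclear lamina, by −1.03 (27.4 and 13.4 TPM, G2/M 28.5 TPM). These 3 shared the pattern of a low in S cells with G1 and G2/M cells higher. As each phase was read as 1 plate, phase and plate cannot be told apart for them.

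The other genes among the 15 largest differences in this direction were 10 pseudogenes or small RNAs together with *Mirg*, a noncoding RNA that hosts microRNAs (−0.92), and *Khdc3*, an oocyte and early embryo gene (−0.81). Small RNAs and pseudogenes are uncertain here, as reads of a parent gene or of a copy can be shared. Against the lysate in place of the G1 cells, 4 of the 15 stayed past 2-fold lower, and *Gm12350*, *Gm11223*, *Gm3788* and *Pgam1-ps2* turned in sign. On the higher side 14 of the 15 stayed past 2-fold. That side also held *Depdc1b* (1.29), a gene of mitotic entry, and *Gm23964*, annotated as a 5S rRNA copy, which was at 1 TPM or more in 58 of 91 S cells (63.7%, exact interval 52.99 to 73.6%) and 24 of 93 G1 cells (25.8%, 17.3 to 35.9%).

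A pair of further genes on the higher side, *Gm28439* and *Gm28661*, lie beside each other on chromosome 1 (24611535 to 24612410 and 24614885 to 24615565) and are annotated as unprocessed pseudogenes within a nuclear copy of mitochondrial DNA. *Gm28661* had medians of 454 TPM in G1 and 1099 in S cells (log2 1.25) and *Gm28439* 1.78 and 50.9 TPM (1.36). For *Gm28439* the 4 other ES plates spanned 3.22 on the log2 scale. Their reads cannot be told from those of mitochondrial genes. All 13 protein-coding genes of the mitochondrial genome lay above 0, with a median of 0.34 and 0 past 2-fold, and *mt-Atp6*, a subunit of ATP synthase, was highest at 0.59 (medians 1918 and 2928 TPM). Plate medians of this list had an SD of 0.39 on the log2 scale, as large as the difference.

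Pluripotency genes differed little between the phases. Of 20 listed, 19 reached 1 TPM with a median of −0.04 and 0 past 2-fold. *Pou5f1* (OCT4) had medians of 216 TPM in G1 and 177 TPM in S cells (log2 −0.29), *Nanog* 151 and 131 TPM (−0.26) and *Sox2* 70.6 and 63.05 TPM (0.06). *Utf1*, an ES cell chromatin factor, was lowest at −0.71 and *Gdf3*, a TGF-beta ligand, highest at 0.35. The cells were thus ES cells by these markers in both phases.

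Among markers of other states 0 of the measured PrE, primed epiblast and trophoblast genes were past 2-fold. Of 12 PrE genes, 7 reached 1 TPM with a median of −0.02, and *Gata6* had medians of 52.1 and 57.3 TPM, which reads of the transgene may share. Of 10 primed epiblast genes, 6 reached 1 TPM with a median of −0.27 and 1 above 0, and their sum had medians of 82.3 TPM in G1 and 69.3 TPM in S cells. The lowest was *Foxd3* (−0.74, medians 1.64 and 0.63 TPM). Of 14 genes of the two-cell-like state 0 reached 1 TPM, and their sum had medians of 0.18 and 0.23 TPM. Of 10 trophoblast genes 4 did, with a median of −0.13, the lowest being *Krt8*, a keratin, at −0.79 (9.67 and 2.50 TPM). The immediate early genes had a median of −0.27 over 11, from *Junb* at −0.76 to *Atf3* at 1.03, both transcription factors, and *Atf3* was at 1 TPM or more in 56 of 91 S cells and 39 of 93 G1 cells.

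The bulk of the transcriptome was close to level. The 80 cytoplasmic ribosomal protein genes had a median of 0.09 with 0 past 2-fold, and 6 genes of rRNA or beside it had one of −0.04. Of 10 noncoding RNAs listed as without a tail, 8 reached 1 TPM with a median of −0.16. Above 0 were 2 of them, *Neat1* at 0.23 and *Malat1* at 0.72, both nuclear long noncoding RNAs. *Neat1* belongs to that list only in part, as the study describes a polyadenylated short isoform, which the sum per gene includes. In the bulk libraries *Neat1* was lower in rdRNA-seq (log2 −0.61, edgeR adjusted p = 2.942e-06) and *Malat1* higher (3.48, edgeR adjusted p = 3.342e-15). *Malat1* had the largest difference, with medians of 795 TPM in G1 and 1343 TPM in S cells. The p53 targets had a median of 0.08 over 10 genes, with *Bax*, a cell death gene, highest at 0.50.

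Bulk libraries of the same line, not sorted by phase, show how the RNA of the same genes is read with and without poly(A) selection. They say nothing on S against G1. The study treats histone genes as known non-poly(A) RNAs, so higher histone counts in rdRNA-seq were known beforehand. rdRNA-seq, which depletes rRNA and keeps non-poly(A) RNA, was compared with paRNA-seq, which selects poly(A) RNA, in 3 libraries each of ES cell RNA. Of 14333 genes tested, 23.8% were higher in rdRNA-seq and 26.1% lower at an adjusted p below 0.05 (edgeR's quasi-likelihood test, Benjamini-Hochberg). All 56 core histone genes tested, of 61, were higher, as were all 6 linker histone genes. *Hist1h1a* had 6778, 6635 and 7321 counts in rdRNA-seq and 15, 9 and 7 in paRNA-seq (log2 9.95, edgeR adjusted p = 7.565e-15). *Hist1h4d* had 6307, 6038 and 5886 counts against 5, 5 and 13 (log2 10.18, edgeR adjusted p = 4.936e-14). The libraries did not overlap for either gene.

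Summed over the list, core histone genes had 115542 to 120930 counts in rdRNA-seq and 402 to 423 in paRNA-seq, in libraries of 7395211 to 7502411 and 8946715 to 8962910 counts. The median fitted log2 difference was 9.25 for core histone genes, or 9.07 with the 4 genes without a count in paRNA-seq set at a floor of 3 counts over the group. The mitosis genes of the S cells were read by both library types. Of 39 tested, 14 were higher in rdRNA-seq and 10 lower, with a median of −0.00, and *Kif11* differed by 0.22 (edgeR adjusted p = 9.965e-05), *Top2a* by −0.15 (p = 0.001046) and *Cdk1* by −0.03 (p = 0.6438). *Ung* was lower in rdRNA-seq by 0.61 on the log2 scale (edgeR adjusted p = 1.139e-05). Of the 89 genes past 2-fold higher in S cells, 42 were tested here, 17 of them higher in rdRNA-seq (40.5%) and 7 lower (16.7%). Of the 54 lower in S cells, 19 were tested, 8 higher and 6 lower. The study's methods describe separate culture dishes for triplicate RNA in another experiment, and whether this holds for these libraries is not given in the sources used here. These p-values then measure the spread between libraries, which may be technical.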

How the data were processed

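Single cells were read by RamDA-seq. The authors quantified the reads with sailfish on GENCODE vM9 transcripts and deposited TPM per transcript (mm10), in a table of 115125 transcript rows. For bulk rdRNA-seq and paRNA-seq of ES cell RNA the authors deposited estimated counts per transcript. Per the labels, the submitters' processing notes also name Bowtie2 2.2.6, HISAT2 2.0.1, Cufflinks 2.2.1 and eXpress 1.5.1, with no role given. Here 378 columns of cells and lysate wells and 189 columns of plate wells were used, and 8 columns with no sample of their own here were left out. TPM were summed per gene name (47517 names). S against G1 was taken as log2((mean S + 1)/(mean G1 + 1)) over genes with a mean of at least 1 TPM, with no test and with all cells kept, since the cells that the study left out of one of its own analyses are not named. Shares have exact (Clopper-Pearson) 95% intervals. Estimated counts were rounded, summed per gene and tested with edgeR 4.0.16 (quasi-likelihood, TMM, filterByExpr, Benjamini-Hochberg at 0.05) in R 4.3.3. The ERCC spike-in rows, 92 in number, were left out of the bulk test. On simulated counts for 14186 genes of this comparison, 200 of them changed, 99% of 2-fold and 100% of 4-fold changes were recovered, with 4.33% of calls false. The changed genes were drawn above a floor of counts, all changes were increases, and every gene had the same fixed dispersion. In the real comparison 23.8% of genes were called higher and 26.1% lower. The recovery rates therefore hold for the simulated setting only. The precision of the bulk counts rests on 7395211 to 8962910 counts per library. For single cells the depth is unknown.

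Samples were grouped by the labelled phase, time, plate and library type. The genes and the 24 lists were chosen with earlier results of these data known. Genes were named as list members, as the highest and lowest of a list, as the 15 largest differences in each direction among genes of at least 10 TPM that reached 1 TPM in at least 25% of cells of the higher phase, or as the 10 genes most like *Hist1h1a* by Spearman correlation. The plates without a phase label kept 174 of 189 wells, leaving out wells with few detected genes, a choice made after seeing the data. With all wells their pairs put 3.13 to 4.92% of genes past 2-fold. Promoters were read from RefSeq tables (GRCm38.p6) and histone stem-loops from GENCODE vM21 transcripts. Motifs were matched exactly on both strands. Alternatives changed the pseudocount, the filter, the mean over cells, the scaling, the cells kept, the G1 level, the fold and, in bulk, the normalization, tool, replicate block and libraries. DESeq2 1.42.0 was the alternative tool, figures were drawn with Matplotlib 3.10.9, and the remaining steps used SciPy 1.17.1 and pandas 2.3.3.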

Additional observations from a re-analysis of the deposited data

Results flagged for a closer look

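Of 65 sets of 9 lysate wells or 4 plate means tested for a value far from the rest, 5 were flagged, and chance flags about 1 set in 20. In the lysate, 1 of 9 wells held *Gm12350* at 0.959 TPM (the next at 0.0065), *Gm3788* at 38.6 TPM (the next at 15.4) and *Gm26244* at 214 TPM (the next at 53.4), and these are genes that were lower in S cells than in G1 cells. Among the means of 4 plates of ES cells without a phase label, *Mir3070b* was highest in plate E1 at 23.3 TPM (the next at 11.4) and *Gm6136* was lowest in plate B2 at 78.5 TPM (the next at 96.6). All of these are pseudogenes or small RNAs.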

How the results depend on the processing

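Against 89 genes higher and 54 lower, a pseudocount of 0.1 TPM gave 233 and 146, a filter of 5 TPM 44 and 18, the median over cells 294 and 119, a fold of 1.5 658 and 285, and the lysate as the G1 level 426 and 311. By the median 45 of the 89 and 16 of the 54 stayed past 2-fold, and against the lysate 48 and 31. A trimmed mean gave 136 higher, the mean of log2(TPM + 1) 21 lower, rescaling to nuclear protein-coding genes 47 higher and median-ratio size factors 46 higher. Core histone genes past the line, 6 in the report, were 19 by the median, 12 by the mean of logs, 3 under either scaling, 17 against the lysate and 24 at 1.5-fold. Linker histone genes, 0 in the report, were 1 by the median, trimmed mean, mean of logs and lysate, and 3 at 1.5-fold. Mitosis genes, 11 in the report, were 19 by the median, 18 by the mean of logs and 21 at 1.5-fold. Their median log2 difference was 0.91 by the median, 0.96 by the mean of logs, 0.51 under either scaling and 0.81 against the lysate. The linker median was 0.83 with a trimmed mean and 0.92 against the lysate, and the core histone median 0.85 against the lysate. Against the lysate *Gm11223* (0.45), *Gm12350* (2.76), *Gm3788* (0.39) and *Pgam1-ps2* (0.0006) turned to higher in S cells. The cause was not tested. Of 733 values recomputed, 119 on groups of genes and 457 on single genes or levels moved by less than the spread or, for counts, by less than 1.5 times. Another 37 on groups of genes and 116 on single genes or levels moved further. The remaining 4, on single genes or levels, were reversed. TPM without depth limit what low genes can show.

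In the bulk comparison a replicate block gave 3358 genes higher and 3672 lower, with 17 and 7 of the genes higher in S cells and 56 core histone genes higher, and it changed none of these calls by over 1.5 times. The replicate numbers did not pair the libraries, as deviations of same-numbered libraries correlated at 0.028, −0.0087 and −0.023. Leaving out 1 library in turn gave 3123 to 3232 higher and 3438 to 3561 lower, with 15 to 16 and 7 to 9 of the genes higher in S cells and 56 to 58 core histone genes higher. Without a filter on low counts 11 of the genes higher in S cells were lower in rdRNA-seq. DESeq2 called 3051 genes higher and 3393 lower. No paired analysis was possible for the phases because no label pairs cells.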

Other observations

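The sorted cells and the 0 h cells, which were collected as all phases, differed in the medians of p53 targets. Of 10 listed, 9 had a lower median in 0 h cells than in each sorted phase, the other being *Bax*. *Ccng1*, a p53 target that encodes cyclin G1, had medians of 56.1 TPM in G1, 63.7 in S and 59.4 in G2/M cells, and 9.19 TPM in 0 h cells. *Cdkn1a*, the CDK inhibitor p21, had medians of 12.4, 11.2, 12.8 and 1.88 TPM in the same order, and *Mdm2*, the ubiquitin ligase of p53, 41.7, 51.3, 39.3 and 18.2 TPM. The sum over the 10 p53 targets had medians of 298, 358, 309 and 159 TPM, so S cells were also above G1 cells. Each group was taken as its own plate or plates, so that plate and group cannot be told apart, and no test was made.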
